A study of Mus musculus with 22 samples.

Results

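The genes described here are 9 genes of the liver's fasting programme under the nuclear receptor PPAR-alpha: the receptor gene Ppara itself, the fatty acid omega-hydroxylases Cyp4a10, Cyp4a14 and Cyp4a31, the pantetheinase Vnn1, the acyl-CoA thioesterase Acot1, the pyruvate dehydrogenase kinase Pdk4 and the secreted proteins Fgf21 and Angptl4. They were chosen by symbol, with earlier results of these data known, and are 9 of the 47729 genes in the count tables. All 9 had enough reads to be tested in each comparison. Gene expression was measured by poly(A) RNA sequencing of frozen livers of male C57BL/6 mice. Wild-type (WT) mice were compared with Slc10a1-/- mice (KO), which carry a knockout of the gene of NTCP, the membrane carrier through which hepatocytes take up bile acids from the portal circulation. The 6 groups were WT and KO at 4 weeks (3 and 3 libraries), at 8 weeks (4 and 6) and at 20 months (3 and 3), 22 libraries in all. The labels do not say how the knockout was made, when in the day livers were taken, whether mice had been fed, or whether libraries came from separate litters, so p-values measure the spread between these libraries.

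PPAR-alpha is a transcription factor that binds fatty acids and their derivatives and pairs with the retinoid X receptor on direct repeats of a short DNA motif. In the fasted liver, fatty acids released from fat tissue activate it, and its targets carry out fatty acid oxidation in microsomes, peroxisomes and mitochondria, ketone body formation and the release of hormones that act on other tissues. Several of these genes also follow the time of day, because feeding and the liver clock are coupled. Levels are therefore given beside Arntl, which encodes the clock activator BMAL1.

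The sequences of the Cyp4a genes matter for how far their levels can be read one by one. The 3 members are neighbours on chromosome 4 of GRCm38: Cyp4a14 at 115486200 to 115496142 on the minus strand, and Cyp4a10 at 115518264 to 115533649 and Cyp4a31 at 115563649 to 115579015 on the plus strand. The first 60 bases of each coding sequence, taken as the longest open reading frame of the GENCODE M21 transcript, are shown with capitals where a base differs from Cyp4a10, and Cyp4a32, a close relative outside the 9 genes, is shown with them.
Cyp4a10: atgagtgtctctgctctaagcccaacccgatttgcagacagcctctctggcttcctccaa
Cyp4a32: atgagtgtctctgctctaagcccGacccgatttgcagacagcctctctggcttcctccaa
Cyp4a31: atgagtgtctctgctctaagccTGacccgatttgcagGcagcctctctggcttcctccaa
Cyp4a14: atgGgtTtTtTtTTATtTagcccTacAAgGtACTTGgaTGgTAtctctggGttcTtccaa
Over the whole coding sequence, Cyp4a10 was 97.2% identical to Cyp4a32, 96.6% to Cyp4a31 and 75.1% to Cyp4a14. Of all stretches of 50 bases in the Cyp4a10 transcripts, 29.8% also occurred in another gene, against 20.6% for Cyp4a31, 19.2% for Acot1 (mostly Acot2), 1.40% for Pdk4, 0.240% for Cyp4a14 and 0 for Vnn1, Fgf21, Angptl4 and Ppara. Reads from such stretches could fit another gene as well, and the effect on the levels of Cyp4a10, Cyp4a31 and Acot1 was not tested. No exon of the 9 genes overlapped an exon of another gene on either strand.

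The gene starts were searched for 4 motifs on both strands, in windows of 250 bases before to 50 bases after the start from RefSeq (GRCm38.p6), which held entries for 4 of the 9 genes (Pdk4, Acot1, Fgf21 and Ppara). The motifs were the direct repeat of AGGTCA with any 1 base between the units, to which PPAR-alpha binds, the single unit AGGTCA (which lies within the repeat), the clock factors' E-box CACGTG and TTGCATCA, a core bound by ATF4. Only the Fgf21 window held any match. It lies at chr7:45615441-45615740 on the minus strand and is shown because it holds both an ATF4 core and an E-box, in capitals, 139 and 50 bases before the start.
Fgf21: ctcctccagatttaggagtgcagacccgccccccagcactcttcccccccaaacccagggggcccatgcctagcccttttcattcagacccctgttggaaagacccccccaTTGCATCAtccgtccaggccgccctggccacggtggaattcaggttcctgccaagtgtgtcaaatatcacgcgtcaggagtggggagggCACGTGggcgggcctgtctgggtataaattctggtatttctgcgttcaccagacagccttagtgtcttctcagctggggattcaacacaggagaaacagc
Among 32544 such windows of the mouse genome, 0.867% held TTGCATCA, 7.17% CACGTG, 16.2% AGGTCA and 0.0399% the direct repeat. These matches describe letters and not binding.

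Depth ranged from 5496425 to 6956124 gene counts among the 4-week libraries and from 18032355 to 26789350 among the others. Slc10a1 itself separated the genotypes at each age, with 108 to 253 CPM (counts scaled to library depth) in KO against 591 to 701 CPM in WT at 4 weeks, 49.4 to 93.8 against 435 to 470 at 8 weeks and 92.3 to 103 against 154 to 370 at 20 months. Summed hepatocyte markers stood between 57757 and 194970 CPM in all 22 libraries. In bulk liver, fewer cells of a type and less RNA per cell cannot be told apart. Arntl was above 10 CPM in 5 libraries: WT library 1 (40.03 CPM) and KO libraries 1 and 3 (45.9 and 10.9) at 4 weeks, and KO libraries 1 and 2 at 8 weeks (44.9 and 43.7). The other 17 libraries stood between 1.12 and 7.55 CPM. At 8 weeks all 4 WT libraries were low, at 1.39 to 2.57 CPM, so the high Arntl values at that age occur in KO libraries alone.

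**Figure D1:**
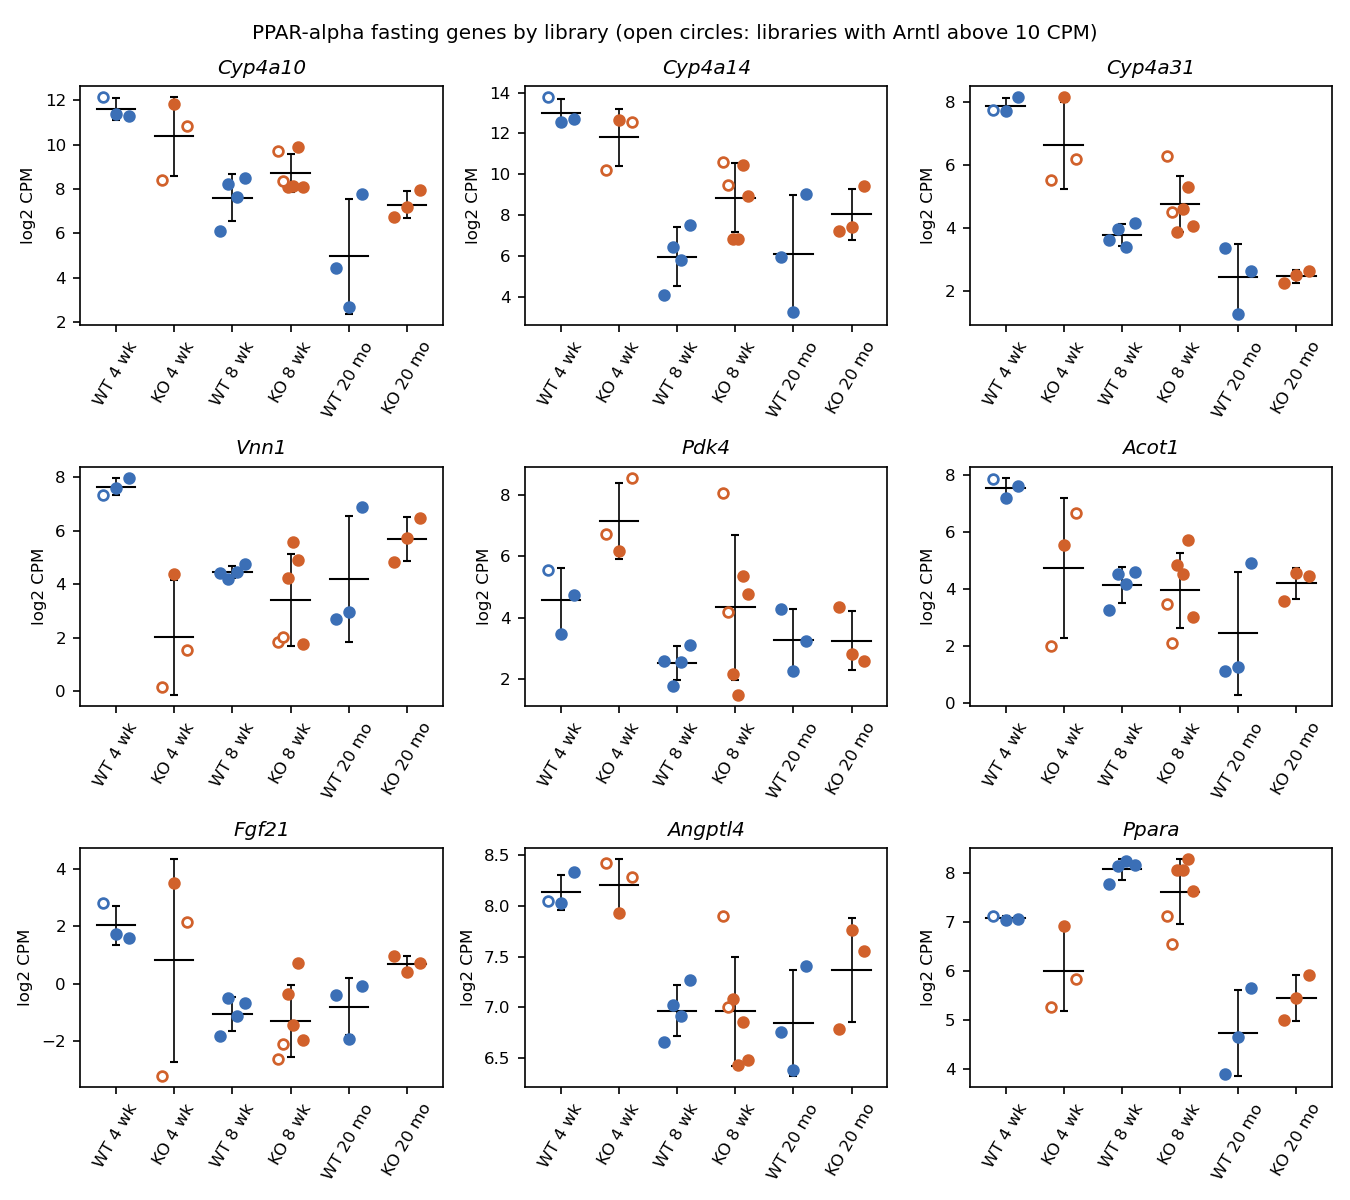
Level of each of the 9 genes in each of the 22 libraries, in log2 CPM, by genotype and age; lines and bars are the group mean ± SD and open circles mark libraries with Arntl above 10 CPM. Vnn1 of the 3 KO livers at 4 weeks lies below all 3 WT livers, while Cyp4a14 and Pdk4 at 8 weeks spread widely among the 6 KO livers. The lowest Fgf21 point stands for a count of 0.

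At 4 weeks, Vnn1 was lower and Pdk4 higher in KO livers, and the other 7 genes did not pass the test (edgeR, adjusted p under 0.05 over all genes). The 2 calls among 9 genes stand against 10.8% of all genes called in this comparison, 5.17% higher and 5.60% lower. Groups did not overlap for 4 of the 9 genes, against 35.5% of all genes. The median log2 fold change of the 9 genes was -0.76, with 0.01 over all genes tested. Markers of cell types differed as well. The summed level of 6 hepatocyte markers was 57757 CPM in KO library 1 and 132000 to 189130 CPM in the other 5 libraries of 4 weeks. Sums were lower in every KO than in every WT liver for macrophages (345 to 565 against 579.5 to 696 CPM; 1 gene higher and 2 lower of 7 tested), endothelium (178 to 245 against 281 to 331 CPM; 0 and 2 of 6) and erythroid cells (139 to 191 against 324 to 453 CPM; 0 and 3 of 3), and higher for stellate cells (341 to 470.4 against 238 to 304 CPM; 1 and 0 of 6). No marker of these 5 lists was at 0. Cholangiocyte sums (16.8 to 26.5 against 34.9 to 40.6 CPM; 0 called of 1 gene tested) were also lower in every KO liver. So were lymphocyte sums, at low levels (1.61 to 2.56 against 4.62 to 5.97 CPM; 0 genes tested). The part of all these lists in the 4-week results was not tested.

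Ppara, the receptor gene, stood at 139, 131 and 133 CPM in WT libraries 1 to 3 at 4 weeks and at 38.5, 120 and 57.2 CPM in KO libraries 1 to 3. All 3 KO values were below the WT values, KO library 2 only slightly. The log2 fold change of -0.86 (SE 0.37) did not pass (edgeR adjusted p = 0.163), and it passed without KO library 2 (-1.45, adjusted p = 0.0141).

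The omega-hydroxylases add a hydroxyl group to the end of fatty acids, the first step towards dicarboxylic acids. Cyp4a14 stood at 14193, 6093 and 6683 CPM in WT libraries and at 1194, 6461 and 5961 CPM in KO libraries at 4 weeks. Cyp4a10 stood at 4547, 2631 and 2465 CPM in WT and at 339.8, 3692 and 1836 CPM in KO. Cyp4a31 stood at 213, 208 and 284 CPM in WT and at 45.5, 284 and 72.6 CPM in KO. For all 3 genes KO library 1 was the lowest of the 6 and KO library 2 lay within or close to the WT range, so the groups overlapped. Log2 fold changes were -0.95 (SE 0.61) for Cyp4a14, -0.68 (SE 0.69) for Cyp4a10 and -0.76 (SE 0.58) for Cyp4a31, and none passed (edgeR adjusted p = 0.331, 0.549 and 0.423). Without KO library 2, Cyp4a31 passed (-1.94, adjusted p = 0.0106).

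Vnn1, which splits pantetheine and so releases the building blocks of coenzyme A, fell the most of the 9 genes. It stood at 164, 195 and 253 CPM in WT libraries and at 1.01, 20.7 and 2.78 CPM in KO libraries at 4 weeks. Every KO liver was far below every WT liver. The log2 fold change was -4.61 (SE 0.85, edgeR adjusted p = 0.0153). The call ended without WT library 2 (adjusted p = 0.0532), WT library 3 (0.0651) or KO library 3 (0.0595), while the fold change stayed between -6.74 and -4.04 with any 1 library left out.

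Acot1, which frees fatty acids from coenzyme A in the cytosol, stood at 235, 147 and 196 CPM in WT libraries and at 3.86, 47.3 and 101 CPM in KO libraries at 4 weeks. The groups did not overlap, yet the KO livers differed widely among themselves. The log2 fold change of -1.90 (SE 0.80) did not pass (edgeR adjusted p = 0.157). It passed without KO library 1 (-1.33, adjusted p = 0.0258) and when no filter on low counts was used (adjusted p = 3.34e-05), as did Ppara with no filter (adjusted p = 0.0260).

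Pdk4, the kinase that shuts pyruvate dehydrogenase and spares glucose, moved the other way. It stood at 46.4, 10.9 and 26.6 CPM in WT libraries and at 106, 71.4 and 374 CPM in KO libraries at 4 weeks. Every KO liver was above every WT liver, with KO library 3 the highest. The log2 fold change was 2.74 (SE 0.69, edgeR adjusted p = 0.0412). The call ended without WT library 1 (adjusted p = 0.0526), WT library 2 (0.130), WT library 3 (0.154) or KO library 3 (0.0988), and in 1 fit of all 22 libraries (0.142), and the fold change ranged from 1.72 without KO library 3 to 3.33 without WT library 1. Pdk4 and Vnn1 both passed with Arntl as a covariate (log2 fold change 2.785, edgeR adjusted p = 0.0314, and -5.22, adjusted p = 0.00306).

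Of the secreted proteins, Fgf21 is a hormone of fasting and of amino acid shortage, and Angptl4 blocks lipoprotein lipase. Fgf21 stood at 6.89, 3.16 and 2.87 CPM in WT libraries and at 0, 11.1 and 4.27 CPM in KO libraries at 4 weeks. KO library 1 had no Fgf21 read, which allows up to 0.535 CPM by total gene counts alone (3 counts, counting error only). KO library 2 was above all WT libraries. Its log2 fold change of 0.27 (SE 0.94) did not pass (edgeR adjusted p = 0.878). Angptl4 differed least, at 264, 261 and 323 CPM in WT and 343, 243 and 312 CPM in KO, with a log2 fold change of 0.12 (SE 0.21, edgeR adjusted p = 0.756).

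At 8 weeks none of the 9 genes passed the test, where 0.0275% of all genes were called (4 of 14522, with 0.00689% higher and 0.0207% lower), and groups overlapped for all 9 (2.25% of all genes did not overlap). The KO livers differed strongly among themselves. Cyp4a14 stood at 17.0, 87.7, 55.3 and 184 CPM in the 4 WT libraries and ranged from 113 to 1539 CPM in the 6 KO libraries (median 599). KO libraries 1, 2, 5 and 6 (1539, 708, 1424 and 490.3 CPM) were above all WT libraries, and KO libraries 3 and 4 (114 and 113) lay within the WT range. The ratio of the means was 8.51 and the log2 fold change 3.13 (SE 0.94, edgeR adjusted p = 0.474). DESeq2 called it (3.12, adjusted p = 0.0489).

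Cyp4a10 stood at 68.8, 300.2, 198 and 360.3 CPM in WT libraries at 8 weeks, and at 268 to 953 CPM in KO libraries (median 304), where KO libraries 1 and 5 exceeded all WT livers (log2 fold change 1.11, SE 0.54, edgeR adjusted p = 0.485). Cyp4a31 stood at 12.2, 15.5, 10.3 and 17.7 CPM in WT and at 14.5 to 77.4 CPM in KO (median 23.3; log2 fold change 1.23, SE 0.46, edgeR adjusted p = 0.474). The highest values of all 3 omega-hydroxylases were in KO libraries 1 and 5.

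Pdk4 showed nearly the same split of livers. It stood at 5.93, 3.27, 5.82 and 8.44 CPM in WT libraries at 8 weeks, and at 267, 18.1, 4.31, 2.69, 40.9 and 26.9 CPM in KO libraries 1 to 6. KO libraries 1, 2, 5 and 6 were above all WT livers, and KO libraries 3 and 4 were not. The log2 fold change was 3.37 (SE 1.23, edgeR adjusted p = 0.474). KO library 6 also held skeletal muscle markers, summed to 114 CPM (Ckm 10.1 and Mb 12.4 CPM), against at most 0.427 CPM in any other library. Muscle expresses Pdk4, and the part of these reads in the value was not tested.

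Vnn1, Acot1 and Ppara divided the 8-week KO livers differently. Vnn1 stood at 21.3, 18.4, 21.6 and 26.7 CPM in WT libraries and at 3.47, 3.93, 19.0, 47.9, 30.2 and 3.29 CPM in KO libraries 1 to 6. KO libraries 1, 2 and 6 were below all WT livers and KO libraries 4 and 5 above them, so the log2 fold change was near 0 (-0.30, SE 0.71, edgeR adjusted p = 0.866). Acot1 was at 9.49 to 24.3 CPM in WT (n = 4) and at 11.1, 4.23, 29.0, 23.1, 52.2 and 8.00 CPM in KO libraries 1 to 6, and its lowest KO values were again in libraries 1, 2 and 6 (log2 fold change 0.21, SE 0.60). Ppara was at 218, 284, 302 and 285 CPM in WT and at 139, 93.9, 267, 268, 313 and 199 CPM in KO, with libraries 1, 2 and 6 below all WT livers (log2 fold change -0.34, SE 0.29, edgeR adjusted p = 0.625).

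Thus KO libraries 1, 2 and 6 at 8 weeks combined high Cyp4a14 and Pdk4 with low Vnn1 and Ppara, KO library 5 combined high Cyp4a14 and Pdk4 with high Vnn1 and Ppara, and KO libraries 3 and 4 lay close to WT for most of the genes. Cyp4a12a, an omega-hydroxylase that male liver expresses above female liver, was at 0.150 to 1.26 CPM in KO libraries 1, 2, 5 and 6 and at 315 and 314 CPM in KO libraries 3 and 4, with 150 to 224 CPM in WT. Summed markers of macrophages, stellate cells, endothelium and hepatocytes divided the same way. In KO libraries 1, 2, 5 and 6 the sums were 620.2 to 812 CPM for macrophages, 528 to 704 CPM for stellate cells, 399 to 542 CPM for endothelium and 152590 to 194970 CPM for hepatocytes. KO libraries 3 and 4 had 271 and 278, 265 and 358, 335 and 334, and 95159 and 84082 CPM, and WT ranged over 295 to 400.1, 280 to 392, 334 to 366 and 87916 to 99521 CPM. None of the 7, 6, 6 and 6 genes of these lists passed between KO and WT in edgeR or was at 0 in any 8-week library, and their part in the values was not tested. Erythroid sums did not divide this way. KO library 5 (156 CPM) lay with KO libraries 3 and 4 (141 and 186 CPM), below KO libraries 1, 2 and 6 (384, 514 and 420 CPM). Cholangiocyte and lymphocyte sums of the 2 sets of KO livers overlapped. Arntl was high in KO libraries 1 and 2 (44.9 and 43.7 CPM) and at 4.77 and 3.81 CPM in KO libraries 5 and 6. Without KO libraries 1 and 2 the log2 fold changes were 2.69 for Cyp4a14 and 1.71 for Pdk4 (edgeR adjusted p = 0.656 and 0.692), a comparison chosen after seeing the data. With Arntl as a covariate they were 1.895 and 0.48.

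Fgf21 was low at 8 weeks, at 0.171 to 0.595 CPM in WT and 0.0526 to 1.52 CPM in KO libraries (median 0.203). By total gene counts alone, a count of 3 corresponds to 0.115 to 0.158 CPM at this age, so several of these values rest on a few reads. Angptl4 was at 101 to 154 CPM in WT and 86.3 to 239 CPM in KO, with KO library 1 the highest. Log2 fold changes were 0.23 (SE 0.78) for Fgf21 and 0.09 (SE 0.27) for Angptl4, and neither passed (edgeR adjusted p = 0.908 and 0.898).

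At 20 months no gene of the whole table passed in edgeR (0% called; 772 of 13966 genes had an unadjusted p under 0.05, and DESeq2 called 53). Fgf21 was the 1 gene of the 9 whose groups did not overlap, against 10.2% of all genes. It stood at 0.659, 0.155 and 0.833 CPM in WT libraries and at 1.82, 1.21 and 1.53 CPM in KO libraries, a log2 fold change of 1.46 (SE 0.56, edgeR adjusted p = 0.821). All values were low, with 3 to 19 counts in WT and 27 to 42 counts in KO libraries. A separation in 1 gene of the 9 is near the share over all genes.

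The WT livers of 20 months were split among themselves. Cyp4a14 stood at 62.1, 9.39 and 525 CPM in WT libraries 1 to 3 and at 151, 172 and 701 CPM in KO libraries 1 to 3. Vnn1 stood at 6.42, 7.74 and 120 CPM in WT and at 28.3, 53.1 and 88.6 CPM in KO. Acot1 followed with 2.08, 2.32 and 30.2 CPM in WT and 11.8, 23.8 and 21.9 CPM in KO. WT libraries 1 and 2 were below every KO liver for these 3 genes, and WT library 3 was within or above the KO range. Cyp4a10, at 21.7, 6.30 and 218 CPM in WT and 106, 147 and 247 CPM in KO, was likewise lowest in WT libraries 1 and 2. Log2 fold changes were 0.77 (SE 1.26) for Cyp4a14, 0.34 (SE 1.08) for Vnn1, 0.74 (SE 0.98) for Acot1 and 1.015 (SE 1.11) for Cyp4a10, and none passed (edgeR adjusted p = 0.918, 0.964, 0.902 and 0.880). Summed neutrophil markers were 2437 and 251 CPM in WT libraries 1 and 2, 5.61 CPM in WT library 3 and 5.50 to 10.7 CPM in KO libraries. Macrophage sums (1220 and 801 against 320 and 271 to 629 CPM) and cholangiocyte sums (195 and 87.4 against 23.9 and 24.4 to 33.2 CPM) set the same livers apart. Hepatocyte sums did not set both apart from WT library 3 (59624 and 71573 against 70678 CPM). The part of these markers in the values was not tested. Without WT library 3, Acot1 was called higher in KO (log2 fold change 3.12, edgeR adjusted p = 0.0342), and the number of genes called rose from 0 to 71.

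Of the remaining genes at 20 months, Pdk4 was at 19.4, 4.70 and 9.22 CPM in WT and 20.1, 6.84 and 5.86 CPM in KO (log2 fold change -0.01, SE 0.64, edgeR adjusted p = 0.999). Cyp4a31 was at 2.32 to 10.2 CPM in WT and 4.64 to 6.15 CPM in KO (log2 fold change -0.19, SE 0.49, edgeR adjusted p = 0.950). Angptl4 (83.0 to 170 against 111 to 217 CPM) and Ppara (14.9 to 49.9 against 31.7 to 60.7 CPM) also overlapped, with WT libraries 1 and 2 below every KO liver and WT library 3 within the KO range, and had log2 fold changes of 0.51 (SE 0.34) and 0.60 (SE 0.44). In edgeR the adjusted p was 0.824 for Angptl4 and 0.828 for Ppara.

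**Figure D2:**
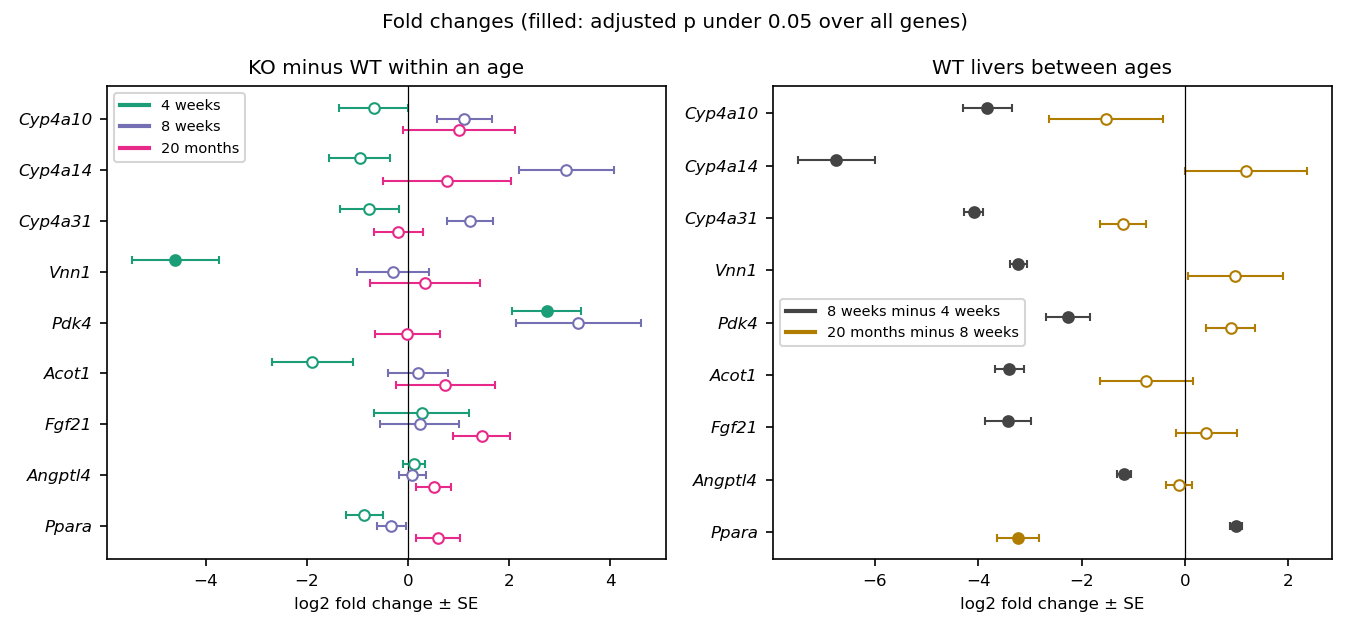
Log2 fold change ± SE of each of the 9 genes, KO minus WT within each age (left) and between ages in WT livers (right); filled points have an edgeR adjusted p under 0.05 over all genes. Among KO comparisons Vnn1 and Pdk4 at 4 weeks are filled, and from 4 to 8 weeks all 9 WT changes are filled, 8 of them to the left of 0.

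The KO effect was compared among ages in 1 fit of all 22 libraries. None of the 9 genes passed the joint test, in which 1.62% of all genes were called, nor any pair of ages (0.328% called for 8 weeks minus 4 weeks, 4.52% for 20 months minus 4 weeks with 2.52% lower, and 0% for 20 months minus 8 weeks). Vnn1 came closest: its KO effect was 4.32 log2 units higher at 8 weeks than at 4 weeks (SE 1.45, edgeR adjusted p = 0.180) and 4.95 higher at 20 months than at 4 weeks (SE 1.59, edgeR adjusted p = 0.0717). Cyp4a14 differed by 4.06 between 8 and 4 weeks (SE 1.51, edgeR adjusted p = 0.226) and Pdk4 by -3.39 between 20 months and 8 weeks (SE 1.504, edgeR adjusted p = 0.405). The 4-week calls of Vnn1 and Pdk4 are therefore not shown to be particular to that age.

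WT livers of 4 weeks held far more of most fasting genes than those of 8 weeks. All 9 genes passed between 4 and 8 weeks, 8 lower and Ppara higher at 8 weeks, where 53.2% of all genes passed (27.5% higher and 25.7% lower). Groups did not overlap for any of the 9, against 55.6% of all genes. Their median log2 fold change was -3.40, with 0.05 over all genes. Age cannot be told apart from sequencing here, since the file names mark the 4-week libraries as paired-end and the others as single-end.

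Cyp4a14 changed most, from 8990 ± 4516 CPM (SD, n = 3) at 4 weeks to 85.9 ± 71.2 CPM (n = 4) at 8 weeks, a ratio of 105 and a log2 fold change of -6.75 (SE 0.74, edgeR adjusted p = 4.42e-05). Cyp4a31 dropped from 235 ± 42.6 CPM at 4 weeks to 13.9 ± 3.30 CPM at 8 weeks (log2 fold change -4.09, SE 0.19, edgeR adjusted p = 3.86e-07), and Cyp4a10 from 3214 ± 1157 to 232 ± 128 CPM (log2 fold change -3.83, SE 0.48). Vnn1 dropped from 204 ± 45.2 CPM at 4 weeks to 22.02 ± 3.45 CPM at 8 weeks (log2 fold change -3.23, SE 0.16, edgeR adjusted p = 5.39e-07). Log2 fold changes were -3.40 (SE 0.28) for Acot1, -3.425 (SE 0.45) for Fgf21, -2.26 (SE 0.42) for Pdk4 and -1.18 (SE 0.14) for Angptl4 (edgeR adjusted p = 7.79e-06, 1.52e-04, 0.00135 and 6.47e-05). Ppara rose from 135 ± 4.04 CPM at 4 weeks to 272 ± 37.3 CPM at 8 weeks (log2 fold change 0.99, SE 0.12, edgeR adjusted p = 6.92e-05), so the receptor gene and its 8 targets moved in opposite directions. All 9 calls held with any 1 library left out. In 1 fit of all 22 libraries, Pdk4 (edgeR adjusted p = 0.116) and Ppara (0.0803) lost theirs.

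Between 8 weeks and 20 months in WT, Ppara fell to 29.9 ± 18.0 CPM (n = 3; log2 fold change -3.23, SE 0.41, edgeR adjusted p = 4.11e-04), and it was the 1 gene of the 9 that passed, where 54.5% of all genes passed (27.7% higher and 26.8% lower). Groups did not overlap for Ppara and Cyp4a31, against 55.9% of all genes. Cyp4a31 had a log2 fold change of -1.20 (SE 0.45) and passed in DESeq2 (adjusted p = 0.0181) but not in edgeR (adjusted p = 0.0514). It also passed without WT library 1 of 20 months (edgeR adjusted p = 0.00678) and with no filter (0.0366), and Pdk4 passed without WT library 2 (log2 fold change 1.25, edgeR adjusted p = 0.0434). Without WT library 3 of 20 months, Cyp4a10 (-4.09, edgeR adjusted p = 0.00485), Acot1 (-3.16, 6.58e-04) and Vnn1 (-1.72, 2.55e-04) passed as lower. With all 3 libraries the log2 fold change of Vnn1 was 0.98 (SE 0.92), so 1 library decided its sign. The labels in the file names also differ between these ages, so age and sequencing run cannot be told apart.

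Scaled per kilobase of exon, for a rough comparison between genes, WT livers of 4 weeks held 3456 ± 1736 CPM per kb of Cyp4a14 and 1524 ± 549 of Cyp4a10 (SD, n = 3). Stretches shared with other genes were not taken into account, so the places of Cyp4a10, Cyp4a31 and Acot1 in this order are uncertain. Cyp4a31 (93.5 ± 17.0), Vnn1 (84.4 ± 18.7) and Angptl4 (79.9 ± 9.82) came next and did not differ beyond their spread. Acot1 (49.2 ± 11.2), Ppara (35.1 ± 1.06), Pdk4 (7.96 ± 5.06) and Fgf21 (4.53 ± 2.36) were lower. At 8 weeks the order in WT livers (n = 4) was different: Cyp4a10 (110 ± 60.6), Ppara (70.9 ± 9.72), Angptl4 (35.7 ± 6.26) and Cyp4a14 (33.03 ± 27.4) led, the first pair and the second pair each within their spread, and Fgf21 (0.428 ± 0.198) was again lowest.

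Levels were next read beside Arntl in 1 fit of all 22 libraries with the 6 group means and log2 CPM of Arntl as a slope. Of the 9 genes, 3 passed, against 9.78% of all genes (4.66% higher and 5.11% lower): Ppara and Vnn1 were lower and Pdk4 higher where Arntl was higher. Per log2 unit of Arntl, Ppara changed by -0.26 (SE 0.06, edgeR adjusted p = 0.0132), Vnn1 by -0.63 (SE 0.16, edgeR adjusted p = 0.0213) and Pdk4 by 0.68 (SE 0.17, edgeR adjusted p = 0.0183). The slopes of Cyp4a10 (-0.07, SE 0.18), Cyp4a14 (0.13, SE 0.23), Cyp4a31 (0.02, SE 0.11) and Angptl4 (0.08, SE 0.06) did not pass (edgeR adjusted p = 0.830, 0.756, 0.944 and 0.365). Nor did those of Acot1 (-0.34, SE 0.19, edgeR adjusted p = 0.243) and Fgf21 (-0.27, SE 0.20, edgeR adjusted p = 0.386).

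The slopes rest on few livers. Pdk4 (0.39, edgeR adjusted p = 0.198) and Vnn1 (-0.61, 0.0709) lost their calls without KO library 1 of 8 weeks, and Vnn1 also without KO library 4 of 8 weeks (0.0600), while Ppara passed with each of the 22 libraries left out in turn. With minus log2 CPM of Dbp, a clock output gene in counter-phase to Arntl, in place of Arntl, none of the 3 passed (Ppara -0.18, adjusted p = 0.0963; Pdk4 0.56, 0.0720; Vnn1 -0.44, 0.105; edgeR). Within the 10 libraries of 8 weeks the 3 slopes passed (Ppara -0.27, adjusted p = 0.0221; Vnn1 -0.66, 0.0391; Pdk4 0.97, 0.0282; edgeR), as did that of Angptl4 (0.21, 0.0390). In 8-week KO libraries 1, 2, 5 and 6 Arntl was at 44.9, 43.7, 4.77 and 3.81 CPM. KO libraries 3 and 4 had 2.39 and 1.80 CPM. Cyp4a12a and the summed markers of macrophages, stellate cells, endothelium and hepatocytes divided these livers the same way. The part of that split in the slopes was not tested. The clock genes did not all place the libraries alike. KO library 1 of 4 weeks had Arntl at 45.9 CPM with Dbp at 9.74, Per3 at 25.2 and Npas2 at 0 CPM, whereas WT library 1 of 4 weeks had Arntl at 40.03 CPM with Dbp at 0.558, Per3 at 3.17 and Npas2 at 2.05 CPM.

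**Figure D3:**
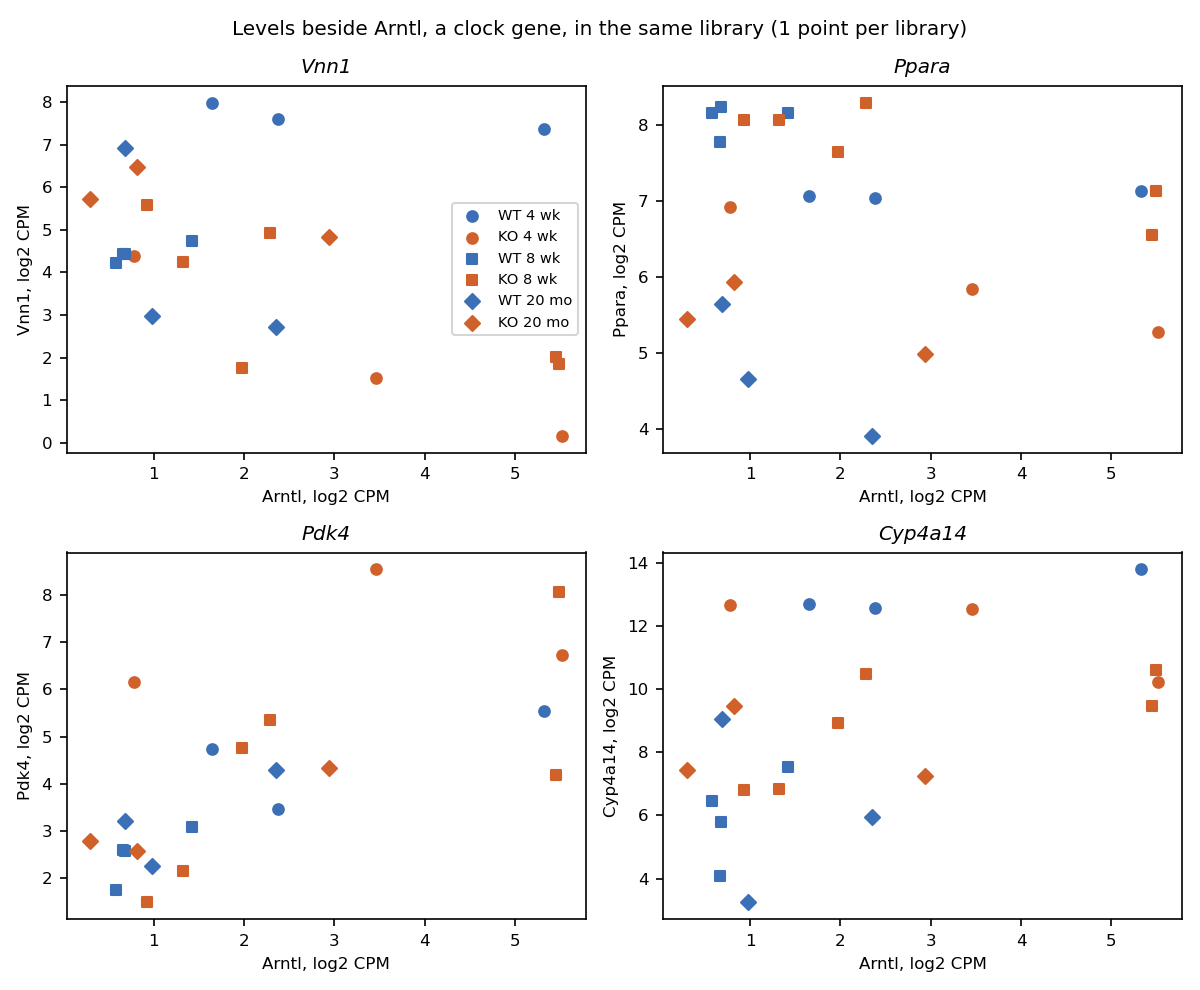
Log2 CPM of Vnn1, Ppara, Pdk4 and Cyp4a14 against log2 CPM of Arntl, 1 point per library, coloured by genotype and shaped by age. Within the 8-week squares the 2 KO libraries at the far right have low Vnn1 and Ppara, and 1 of them has the highest Pdk4 of its age. The 4-week WT circle at the far right has more Vnn1 than any 8-week liver but the least of the 3 WT livers of its age.

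Among themselves the 9 genes fell into sets when deviations from group means were compared over the 22 libraries, given as a description, since libraries share their scaling. Cyp4a10 and Cyp4a14 deviated together (r = 0.90). Ppara deviated with Vnn1 (0.88) and Acot1 (0.79), and Vnn1 with Acot1 (0.77). Pdk4 deviated against Vnn1 (-0.45). Among 8101 genes, the closest to Cyp4a10 were Acot3 (0.84) and Acot4 (0.83), thioesterases next to Acot1, and Ehhadh (0.82), the peroxisomal bifunctional enzyme. The closest to Cyp4a14 was Slc16a5 (0.86). Fabp2 (0.95), a fatty acid-binding protein, and Lipc (0.93), hepatic lipase, were closest to Vnn1, Irs2 (0.91), an insulin receptor substrate raised in fasting, to Pdk4, Zfp672 (0.94), a zinc finger gene, to Fgf21, and Ube2d3 (0.86), a ubiquitin-conjugating enzyme, to Angptl4.

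Other genes of the pathway were read as lists, beside the same background of 10.8% called at 4 weeks. Of 12 tested peroxisomal targets, 0 were higher and 2 lower in KO livers at 4 weeks: Acaa1b, a peroxisomal thiolase (log2 fold change -3.41, edgeR adjusted p = 0.0424), and Pex11a, which divides peroxisomes (-1.22, 0.0359). Of 17 genes on the mitochondrial and ketone body list, 1 was higher and 0 lower. The higher gene was Acss2 (0.67), a cytosolic acetyl-CoA synthetase and not a mitochondrial one. Of 18 genes of lipid uptake and droplets, 2 were higher (Lpl, lipoprotein lipase, 1.92, edgeR adjusted p = 0.0186, and Cd36, a fatty acid translocase, 0.90, 0.0459) and 0 lower. Median log2 fold changes of these 3 lists were -0.69, -0.56 and 0.07, with 0.01 over all genes. Of 11 other omega-hydroxylases and thioesterases, 0 were higher and 3 lower, led by Cyp4a12a (-6.59, SE 0.53, edgeR adjusted p = 3.59e-04).

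Genes around the receptor and other arms of the fasting response at 4 weeks were read beside the same 10.8% of all genes called (5.17% higher and 5.60% lower). Of 13 PPAR receptors, partners and coregulators, 2 were higher and 0 lower in KO: Pparg, the adipose PPAR (log2 fold change 2.54, SE 0.31, edgeR adjusted p = 0.00337), and Ppargc1a, the coactivator PGC-1alpha (1.60, SE 0.20, edgeR adjusted p = 0.00366). Of 17 fasting genes under CREB, FOXO and the glucocorticoid receptor, 2 were higher and 1 lower. Igfbp1, a liver binding protein of insulin-like growth factors that insulin represses, was at 336, 413 and 464 CPM in WT and 7940, 2347 and 3836 CPM in KO libraries (log2 fold change 3.58, SE 0.46, edgeR adjusted p = 0.00434). Got1, an aminotransferase, was higher (2.27) and Tsc22d3, a glucocorticoid target, lower (-1.50). Of 11 ATF4 targets, 2 were higher (Asns, asparagine synthetase, 2.74, edgeR adjusted p = 8.83e-04, and Atf4 itself, 1.00, 0.0294) and 0 lower. Of 16 lipogenic genes of the fed state, 0 were higher and 2 lower, among them Mlxipl, the carbohydrate-responsive factor ChREBP (-1.31). In the receptor complex and relatives of Fgf21, Pdk4, Vnn1 and Angptl4, 1 of 11 was lower (Fgfr2, -1.20). Several of these counts, such as those of the lipogenic genes and of these relatives, are near the share over all genes. At 8 weeks and at 20 months no gene of these lists passed between KO and WT in edgeR.

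In WT livers from 4 to 8 weeks, other targets of PPAR-alpha moved with the 9 genes, beside 53.2% of all genes called. Of 12 peroxisomal targets 9 were lower and 0 higher, among them Ech1 (log2 fold change -1.69), an enoyl-CoA isomerase, and Ehhadh (-3.74, SE 0.38, edgeR adjusted p = 2.62e-05). Of 17 genes of the mitochondrial list 13 were lower and 1 higher, among them Acadm (-1.87), medium-chain acyl-CoA dehydrogenase. Cpt1a, which lets fatty acids into mitochondria, did not pass (-0.06, SE 0.10, edgeR adjusted p = 0.646). Of 18 genes of lipid uptake and droplets 15 were lower and 1 higher, among them Fabp1 (-2.15), the liver fatty acid-binding protein. Lipogenic genes of the fed state went the other way, with 11 of 16 higher and 1 lower, including Fasn (2.62), fatty acid synthase, and Acaca (2.02), acetyl-CoA carboxylase. Median log2 fold changes were -1.35, -1.22, -1.04 and 2.09 in these 4 lists. From 8 weeks to 20 months, where 54.5% of all genes passed and 26.8% were lower, 0 of 12 peroxisomal targets passed, and 8 of 13 receptors and coregulators were lower, among them Ncor1 (-1.64), a corepressor.

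**Figure D4:**
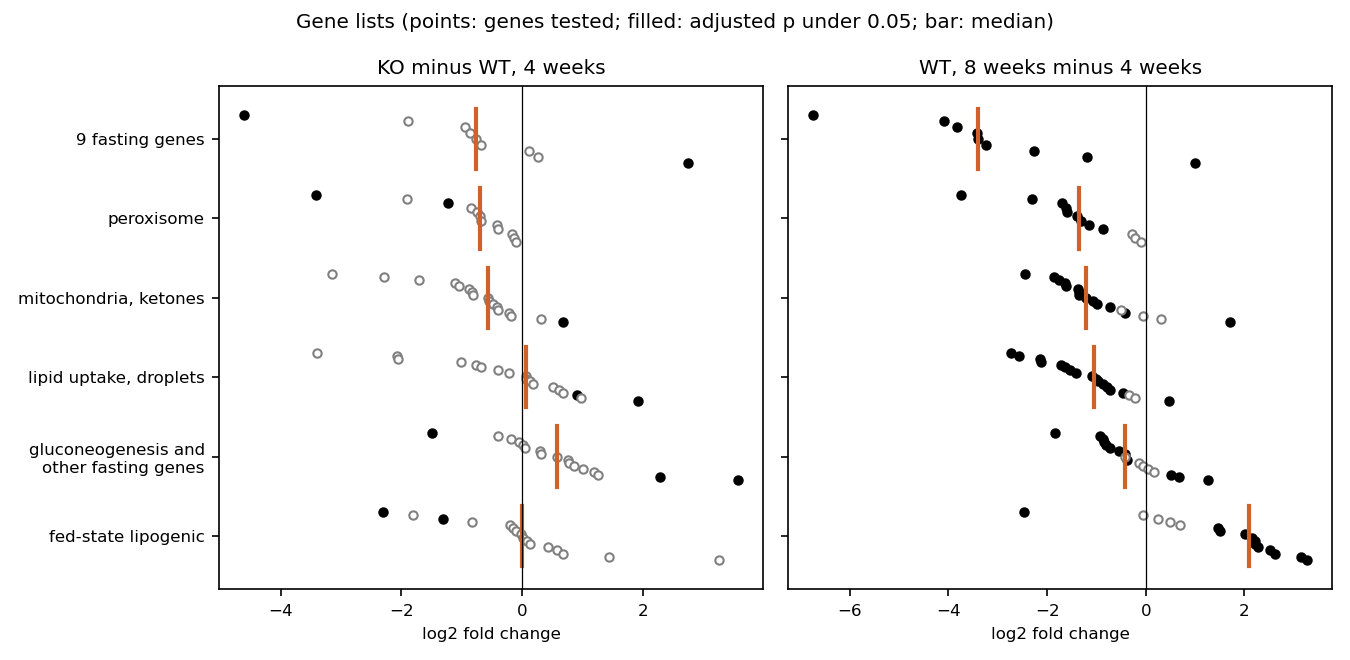
Log2 fold change of each tested gene in 6 lists, KO minus WT at 4 weeks (left) and WT at 8 weeks minus 4 weeks (right); filled points have an edgeR adjusted p under 0.05 over all genes, and bars are list medians. At 4 weeks most points are open, while between ages most genes of the peroxisome, mitochondria and lipid uptake lists are filled to the left of 0 and most lipogenic genes to the right.

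The lists were also read beside Arntl. Of 17 fasting genes under CREB, FOXO and the glucocorticoid receptor, 6 had a higher level where Arntl was higher and 0 a lower one, including Igfbp1 (0.82 per log2 unit) and Irs2 (0.43), beside 4.66% higher and 5.11% lower over all genes. Of 12 ATF4 targets 4 were higher and 0 lower. Peroxisomal targets (0 higher and 3 lower of 12), the mitochondrial list (0 and 2 of 18) and genes of lipid uptake (1 and 6 of 19, with Fabp1 at -0.66) had more lower than higher calls. The count of the mitochondrial list is near the share over all genes. In the 8-week KO libraries 1 to 6, Igfbp1 was at 7797, 1830, 49.9, 20.9, 525.8 and 718 CPM, and Fabp1 at 251, 392, 2073, 2744, 1143 and 264 CPM. Igfbp1 was above all WT livers (58.2 to 268 CPM) in the same 4 KO livers that had high Cyp4a14 and Pdk4, and Fabp1 was below all WT livers (1386 to 1766 CPM) in KO libraries 1, 2, 5 and 6.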

How the data were processed

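Each library had 1 table of counts that the authors deposited, whole reads for each Ensembl gene without normalization, made with HISAT2 2.0.4 and HTSeq 0.6.1p1 on GRCm38, per the submitters' processing notes. The annotation release, strand setting and read filters are not given in the sources used here. Library tables were scaled to CPM with TMM factors of all 22 libraries, except the CPM of 3 counts, which used total gene counts alone. The 5 summary lines were left out. Reads outside genes, 1 of these lines, made up 6.13% to 17.78% of the reads that were in genes, outside genes or ambiguous. Symbols and exon lengths came from GENCODE M21 (47310 of 47729 genes) and promoter windows from RefSeq. The p-values come from edgeR 4.0.16 (R 4.3.3): filterByExpr, TMM, 2-sided quasi-likelihood test, Benjamini-Hochberg adjustment over all genes, threshold 0.05, with each comparison of 2 groups fitted on its own libraries. DESeq2 1.42.0, other scaling, no filter, covariates and left-out libraries were alternatives, and the fits were tested on simulated data. Same-numbered libraries were not taken to pair. No library repeated another (smallest chi-square per degree of freedom 8.34). The 9 genes and all lists were chosen with earlier results of these data known. The text names the 9 genes in every comparison, up to 4 genes per list by adjusted p, up to 4 genes per member by correlation among genes averaging 3 or more in log2 CPM, and a few others (Cyp4a12a, Ehhadh, Cpt1a, Igfbp1, Fabp1 and clock genes by library) chosen after their values were seen. Some items are not reported here.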

Additional observations from a re-analysis of the deposited data

Results flagged for a closer look

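The 9 genes and Arntl were tested for a value far from the rest in the groups with more than 3 libraries, the 4 WT and 6 KO livers of 8 weeks. Among these 20 tests, 3 values stood apart. Chance would give about 1 in 20 if CPM values were normally distributed, which was not checked, and the tests share the same libraries. Pdk4 was at 267 CPM and Angptl4 at 239 CPM in KO library 1 of 8 weeks, the liver that also held the highest Cyp4a14 and Cyp4a31 of its age. The third was Arntl, at 2.57 CPM in WT library 4 of 8 weeks, against 1.39 to 1.49 CPM in the other 3 WT livers.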

How the results depend on the processing

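The number of genes called between KO and WT at 4 weeks was 1200, with 2048 under no filter and 590 with a replicate block. At 8 weeks it was 4, with 109 in DESeq2, 0 with the replicate block and 1 with Arntl as a covariate. DESeq2 gave 53 in place of 0 at 20 months, 1226 in place of 258 in the joint test of ages and 2420 in place of 1552 for the Arntl slope, which gave 293 with minus Dbp as the covariate and 2814 in the 8-week libraries alone. With 1 library left out the counts ranged from 184 to 2012 at 4 weeks, 1 to 5 at 8 weeks, 0 to 71 at 20 months, 6501 to 7482 and 6433 to 8809 between ages in WT, 119 to 197 in the joint test (where the 3 KO libraries of 4 weeks were left out in turn and no others) and 554 to 2205 for the Arntl slope. Shifts by more than 1.5 times came at 4 weeks without WT library 1 (689), 2 (234) or 3 (184) or KO library 1 (2012) or 3 (429), at 8 weeks without WT library 1 (1), 2 (2) or 3 (1) or KO library 5 (1) or 6 (2), and at 20 months without WT library 3 (71). They also came in the joint test without KO library 2 (129) or 3 (119) of 4 weeks, and for the Arntl slope without KO library 1 (554), 3 (747) or 4 (717) of 8 weeks. Same-numbered libraries correlated between -0.28 and 0.40 in their deviations, and not every pair was above 0.1, so the numbers were not taken to pair libraries. Signs turned in values that did not pass the test: with the block, Fgf21 at 4 weeks (-0.11) and 8 weeks (-0.775), Acot1 at 8 weeks (-0.34) and Cyp4a31 at 20 months (0.016). With Arntl as a covariate they turned for Fgf21 at 4 weeks (-0.14) and for Vnn1 (0.55), Angptl4 (-0.40) and Ppara (0.13) at 8 weeks. They also turned without both high-Arntl KO libraries for Vnn1 (0.17) and Angptl4 (-0.23) at 8 weeks, and for the Arntl slope of Cyp4a10 in the 8-week libraries alone (0.21). With 1 library left out, log2 fold changes crossed 0 for Fgf21 (-1.05 to 0.90) at 4 weeks, for Acot1 (-0.31 to 0.41), Fgf21 (-0.038 to 0.457) and Angptl4 (-0.16 to 0.19) at 8 weeks, and for Cyp4a14 (-0.30 to 3.25), Cyp4a31 (-0.58 to 0.38), Vnn1 (-0.18 to 3.001) and Pdk4 (-0.82 to 0.67) at 20 months. They crossed 0 for Cyp4a14 (-1.31 to 1.85), Vnn1 (-1.72 to 1.52) and Angptl4 (-0.48 to 0.11) between 8 weeks and 20 months in WT, and for the Arntl slopes of Cyp4a10 (-0.197 to 0.049) and Cyp4a31 (-0.15 to 0.17). The causes were not tested. Of the other values of the 9 genes, 290 kept direction and side of the threshold under the other alternatives, and 505 did with 1 library left out. Fgf21 had 1 to 35 counts per library at 8 weeks.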
